A study of Homo sapiens with 12 samples.

Results

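PDE2A is the gene that carries the microRNA miR-139 in one of its introns, and it belongs to the family of cyclic nucleotide phosphodiesterases. Described here are PDE2A and 8 further genes whose symbols place them in that family, namely PDE3A, PDE3B, PDE4A, PDE4B, PDE4C, PDE6D, PDE8A and PDE9A. They were taken by symbol and make up 9 of the 37471 genes of the deposited expression table used here. The set was chosen with earlier results of these data known, and 6 further phosphodiesterase genes of the table are described separately below. RNA with a polyA tail was sequenced from CAL62, an established cell line from a thyroid anaplastic carcinoma. The cells came as 2 isogenic lines, each with a doxycycline-inducible construct. The miR-139 line makes mature hsa-miR-139-5p when doxycycline is added, and the scrambled line makes a scrambled RNA that serves as a non-targeting control. The 4 groups were the miR-139 line given 1 µg/ml doxycycline for 96 h, the miR-139 line left untreated, the scrambled line given the same doxycycline, and the scrambled line left untreated, with 3 libraries in each and 12 in all. All groups thus carry an inducible construct. The labels give the untreated groups a time of 0 h. In a comparison of treated with untreated cells, doxycycline and time therefore cannot be told apart. Each line stands for 1 inserted construct in 1 tumour line, and how many clones went into it is not stated in the labels used here. The columns of the table give each library's group and a tag (C, NE or TR), 1 of each per group. The labels do not say what a tag stands for, so a library is called here by its group and tag.

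Cyclic nucleotide phosphodiesterases break down cyclic AMP and cyclic GMP, the second messengers made by adenylyl and guanylyl cyclases, and so set how long a hormone signal lasts. In the normal thyroid follicular cell, thyrotropin acts through its receptor, the stimulatory G protein and cyclic AMP, and phosphodiesterases of several families end that signal. The families differ in what they cleave: PDE2A cleaves both messengers and is stimulated by cyclic GMP, PDE3 enzymes are inhibited by cyclic GMP, PDE4 and PDE8 enzymes are specific for cyclic AMP, and PDE9A is specific for cyclic GMP. PDE6D is listed with them by name only, since it is the delta subunit of a photoreceptor phosphodiesterase and acts elsewhere as a chaperone that carries prenylated proteins, whose release is driven by the small GTPases ARL2 and ARL3.

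The link between PDE2A and the microRNA is one of position. In GENCODE 29 (GRCh38), PDE2A lies on the minus strand at chr11:72576141-72674591 and MIR139 lies inside it on the same strand at chr11:72615063-72615130. The hairpin falls in an intron of 8 of the 14 protein-coding PDE2A transcripts and in an exon of 0. In the transcript PDE2A-201, with 31 exons, it sits in intron 2, 59323 bases after the transcript start and 6311 bases before the next exon. The sequences below, from the RefSeq tables for GRCh38.p14, are shown because the 5p strand is what the miR-139 line was built to make. In the 2 mature strands, capitals mark the seed (bases 2 to 8), the stretch that pairs with target mRNAs. In the hairpin, capitals mark the 5p strand.
hsa-miR-139-5p: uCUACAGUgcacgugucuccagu
hsa-miR-139-3p: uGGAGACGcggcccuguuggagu
MIR139 hairpin: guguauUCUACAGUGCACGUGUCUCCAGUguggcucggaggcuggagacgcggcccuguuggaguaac

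**Figure D1:**
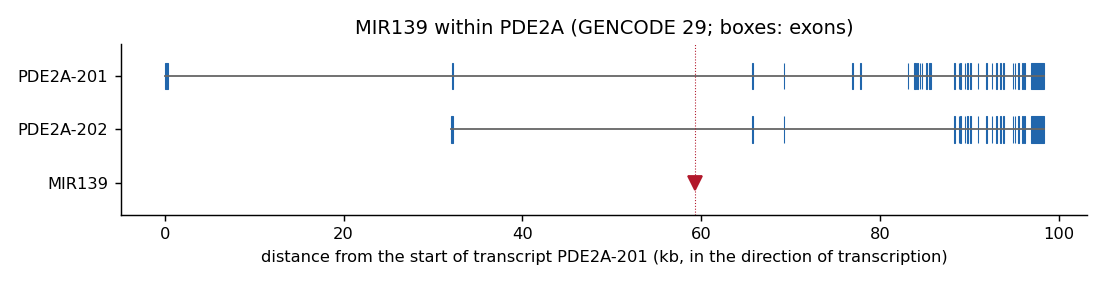
Position of MIR139 (triangle) relative to the exons (boxes) of the PDE2A transcripts PDE2A-201 and PDE2A-202, as distance in kb from the start of PDE2A-201 in the direction of transcription. The hairpin lies 59.3 kb after that start, in the intron between the second and the third exon of PDE2A-201.

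The DNA letters complementary to that seed, ACTGTAG, were searched on the sense strand in GENCODE 29, taking for each gene its longest 3′ UTR. They occur in 1938 of the 19120 genes with a 3′ UTR (10.1%), and in 3 of the 9 phosphodiesterase genes. PDE4A holds 2 copies in its 2010-base 3′ UTR, PDE3A holds 1 in 4110 bases, and PDE8A holds 1 in 1242 bases. All 3 are longer than the median 3′ UTR searched, 1106 bases, and the shares were not adjusted for length. PDE2A, PDE3B, PDE4B, PDE4C, PDE6D and PDE9A hold none in the transcript searched. A match is a run of letters, and pairing with the microRNA was not measured. The sites are printed with 11 bases on either side and the match in capitals, beside the site of HNRNPF, the mRNA for a splicing regulator that the series names as the partner of this microRNA. In the first PDE4A site and in PDE3A the match is followed by an A, which makes the longer match ACTGTAGA.
PDE4A, first site (chr19:10467935-10467941, GRCh38, plus strand): gaaacacagcaACTGTAGatgctcctgtt
PDE4A, second site (chr19:10468991-10468997, GRCh38, plus strand): gagcacacggtACTGTAGcccccagttcc
PDE3A (chr12:20680354-20680360, GRCh38, plus strand): ttagacacaacACTGTAGaaatttgagat
PDE8A (chr15:85138100-85138106, GRCh38, plus strand): gagacttggccACTGTAGcctgggcctgc
HNRNPF (chr10:43386151-43386157, GRCh38, minus strand): acaatactaatACTGTAGgaattggtgag

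Values are FPKM, fragments scaled to the length of the transcript and to the depth of the library, as the authors deposited them. The number of fragments behind a value is unknown. Relative depth was read from the most common ratio of low values between each library and the untreated scrambled C library. This takes such values to stand for equal numbers of fragments, which was not tested. On this reading the 12 libraries lay within 2.08-fold of each other in depth. The untreated miR-139 TR library was the shallowest and the doxycycline-treated scrambled TR library the deepest. Between 9518 and 9884 genes reached 1 FPKM per library. The NE libraries stood apart, with 6.08% to 9.18% of the summed FPKM on mitochondrial genes, against 11.4% to 13.1% in the C and TR libraries. Of the thyroid markers, PAX8 averaged 107 FPKM, whereas NKX2-1 was listed at 0 in all 12 libraries and TSHR, the thyrotropin receptor, SLC5A5 and DIO2 averaged below 0.03 FPKM. Of the epithelial markers, the keratins KRT18, KRT8 and KRT19 averaged 663, 618 and 330 FPKM and EPCAM 39.2 FPKM, whereas CDH1 averaged 0.0362 FPKM. Vimentin (VIM), a mesenchymal marker, averaged 1711 FPKM, and the fibroblast marker COL1A1 62.0 FPKM. Of 3 leukocyte markers PTPRC and CD3E were listed at 0 and CD68 averaged 8.68 FPKM (5.32 to 12.6). MIR139 itself was listed at 0 in all 12 libraries, so the induction cannot be read from this table. HNRNPF had 96.7, 113 and 85.9 FPKM in the C, NE and TR libraries of doxycycline-treated miR-139 cells, against 193, 238 and 184 FPKM in untreated miR-139 cells.

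Of the 9 genes, 2 held most of the summed FPKM, with PDE6D in the family by name only. Other genes of the family were not all analysed here, so the shares are of the 9 genes and not of the family. PDE6D averaged 38.4 ± 7.41 FPKM and PDE8A 37.2 ± 3.15 FPKM (SD over 12 libraries), and 6.42% and 6.62% of the genes of the table had a higher mean. Together they held 82.4% to 89.4% of the summed FPKM of the 9 genes, which was 77.9 to 95.9 per library. PDE2A followed with 5.21 ± 1.38 FPKM and PDE3B with 5.01 ± 0.869 FPKM, levels that overlapped each other in their ranges of 2.89 to 7.91 and 3.85 to 6.93 FPKM. PDE4A averaged 0.981 ± 0.256 FPKM. The other 4 lay below 0.4 FPKM in every library: PDE4C averaged 0.197, PDE4B 0.150, PDE9A 0.0632 and PDE3A 0.0335 FPKM, with PDE9A listed at 0 in 5 libraries and PDE3A in 2. Between 33.4% (PDE4C) and 43.2% (PDE3A) of the genes of the table had a higher mean, in a table where 17323 genes had no value above 0. PDE6D and PDE8A do not differ beyond their spread, nor do PDE2A and PDE3B.

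**Figure D2:**
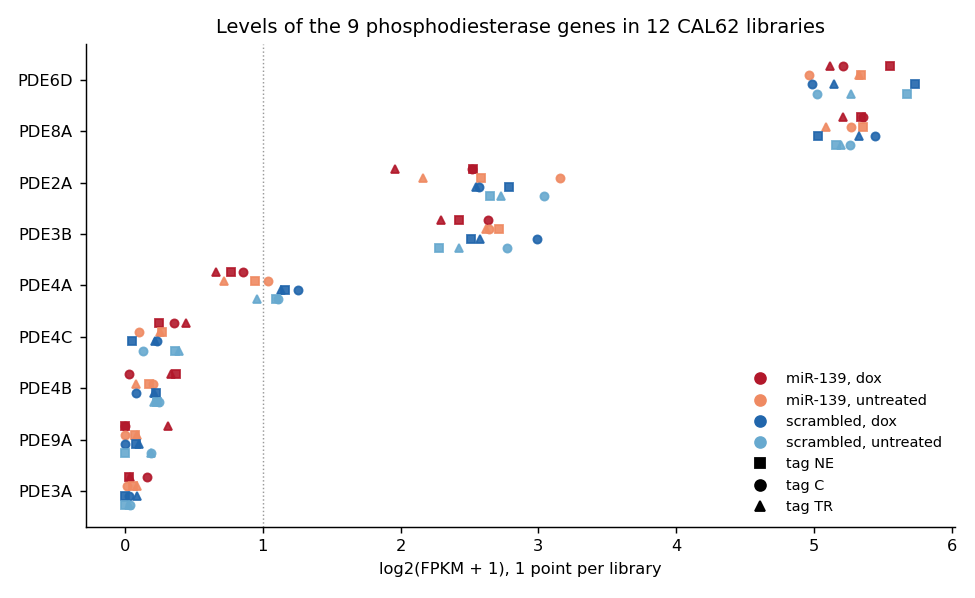
Level of each of the 9 genes as log2(FPKM + 1) on the horizontal axis, 1 point per library, coloured by group and shaped by tag; the dotted line is 1 FPKM. PDE6D and PDE8A lie at 30.3 to 52.2 and 31.6 to 42.4 FPKM, PDE2A and PDE3B near 5 FPKM, PDE4A at either side of 1 FPKM, and the other 4 genes below 0.4 FPKM.

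Differences were tested on log2(FPKM + 1) with limma over the 9778 genes whose mean FPKM was at least 1, with Benjamini-Hochberg adjustment over all of them and a threshold of 0.05. A difference on this scale understates the change of a gene with low values. PDE2A, PDE3B, PDE6D and PDE8A passed that filter, and PDE4A missed it by its mean of 0.981 FPKM. No phosphodiesterase gene was called in any of the 5 comparisons between groups (0 of 4 in each), and the background was likewise 0 of 9778 genes (0%) in all 5. At an unadjusted p under 0.05 limma counted 72 genes for doxycycline in the miR-139 line, 47 for doxycycline in the scrambled line, 41 for the difference between those changes, 105 for the lines compared after doxycycline and 58 for the lines compared untreated, and 0 of the 4 were among them. Libraries with the same tag deviated together from their group means, so each comparison was also fitted with the tag as a replicate block. That fit called 2 genes (0.0205%), 0 genes, 1 gene (0.0102%), 11 genes (0.112%) and 0 genes in the same order, again 0 of the 4. The 2 genes called with doxycycline in the miR-139 line were HNRNPF and EIF4G2. EIF4G2 codes for a translation factor.

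PDE2A, the host gene, had 4.71, 4.76 and 2.89 FPKM in the C, NE and TR libraries of doxycycline-treated miR-139 cells, against 7.91, 4.98 and 3.47 FPKM in untreated miR-139 cells. The treated library was lower in each of the 3 tags, by 0.64 (C), 0.05 (NE) and 0.20 (TR) on the log2(FPKM + 1) scale, but the groups overlapped. The mean difference was −0.30 (SE 0.24; 95% confidence interval −0.82 to 0.23; limma adjusted p = 1), and with the replicate block the interval was −0.67 to 0.07. Its size rested on single miR-139 libraries: it was −0.04 without the untreated C, −0.11 without the treated TR and −0.54 without the untreated TR library. In the scrambled line PDE2A had 4.93, 5.90 and 4.83 FPKM with doxycycline, against 7.21, 5.25 and 5.62 FPKM untreated. It was lower in the C and TR libraries and higher in NE, with a mean difference of −0.17 (SE 0.24). The change in the miR-139 line and that in the scrambled line differed by −0.13 (SE 0.34; interval −0.87 to 0.61), so the 2 lines were not told apart by this test. In RNA from whole cultures, fewer cells that express a gene and less of its RNA per cell cannot be told apart.

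Between the lines, the 3 PDE2A values of doxycycline-treated miR-139 cells all lay below the 3 of doxycycline-treated scrambled cells. The mean was 4.12 ± 1.07 FPKM in the miR-139 line and 5.22 ± 0.588 FPKM in the scrambled line (SD, n = 3 each), and the highest miR-139 value, 4.76, was close to the lowest scrambled value, 4.83. An exact two-sided permutation test gave p = 0.1, the smallest that 3 against 3 allows, and the difference was −0.30 (SE 0.24; limma adjusted p = 1.00). With the replicate block the SE was 0.17 and the interval −0.67 to 0.07 (limma adjusted p = 0.783). The difference was −0.11 without the treated miR-139 TR library. Untreated, the lines overlapped, at 5.45 ± 2.26 FPKM in the miR-139 line and 6.03 ± 1.04 FPKM in the scrambled line (SD, n = 3 each). That difference was −0.17 (SE 0.24), and without the TR libraries its sign turned to 0.03. The largest PDE2A value of all, 7.91 FPKM, was that of the untreated miR-139 C library.

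PDE3B, a cyclic GMP-inhibited enzyme best known from fat cells, showed opposite differences in the 2 lines. It had 5.21, 4.38 and 3.89 FPKM in the C, NE and TR libraries of doxycycline-treated miR-139 cells, against 5.25, 5.57 and 5.15 FPKM in untreated ones. In scrambled cells it had 6.93, 4.69 and 4.95 FPKM with doxycycline, against 5.82, 3.85 and 4.36 FPKM untreated. The treated value was thus lower in 3 of 3 tags of the miR-139 line, by 0.01, 0.29 and 0.33 in C, NE and TR, and higher in 3 of 3 tags of the scrambled line, by 0.22, 0.23 and 0.15, although the groups overlapped in both lines. The mean differences were −0.21 (SE 0.18) in the miR-139 line and 0.20 (SE 0.18) in the scrambled line. The difference between them was −0.41 (SE 0.25; interval −0.95 to 0.14; limma adjusted p = 1.00), and −0.41 (SE 0.18; interval −0.80 to −0.02; limma adjusted p = 1.00) with the replicate block. Without single libraries it ranged from −0.55 to −0.26, and −0.26 was the value without the treated scrambled C library. The change in the scrambled line ranged from 0.05 without that library to 0.34 without the untreated scrambled C library. Lower in all tags of the first line and higher in all tags of the second was a pattern that 2 of the 9 genes showed, PDE3B and PDE4A, and that 299 of the 20148 genes with a value above 0 showed (1.48%). That share covers only the direction seen in these 2 genes. Genes with the reverse pattern were not counted, so the share of opposite changes in either direction is not known.

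PDE4A, a cyclic AMP-specific enzyme and the only one of the 9 with 2 seed matches, had 0.810, 0.701 and 0.581 FPKM in the C, NE and TR libraries of doxycycline-treated miR-139 cells. In doxycycline-treated scrambled cells it had 1.39, 1.24 and 1.19 FPKM. The groups did not overlap, with the highest miR-139 value below the lowest scrambled value and differences of −0.40 in C, −0.39 in NE and −0.47 in TR. The mean was 45.2% lower in the miR-139 line, at 0.697 ± 0.115 FPKM in the miR-139 line and 1.27 ± 0.102 FPKM in the scrambled line (SD, n = 3 each). Since PDE4A lay under the filter, it was tested in a fit with no filter, over the 20148 genes with a value above 0. There the difference was −0.42 (SE 0.11; interval −0.68 to −0.17), with an unadjusted p of 0.00409 and a limma adjusted p of 1, in a comparison that called 5 genes (0.0248%). With the replicate block and no filter the unadjusted p was 8.82e-04 and the limma adjusted p 0.426, and again 5 genes were called (0.0248%). PDE4A therefore did not pass the test, and these fits were chosen after its values had been seen.

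Without doxycycline the PDE4A values of the 2 lines overlapped. Untreated miR-139 cells had 1.05, 0.925 and 0.647 FPKM of PDE4A in C, NE and TR, against 1.16, 1.14 and 0.943 FPKM in untreated scrambled cells. The value was lower in 3 of 3 tags, the mean was 0.810 times that of the scrambled line, and the difference was −0.15 (SE 0.11; interval −0.41 to 0.10; limma adjusted p = 1 with no filter), which did not pass. It was −0.06 without the untreated miR-139 TR library. With doxycycline PDE4A was 20.3% lower in the mean of the miR-139 line than untreated, lower in 3 of 3 tags, and 17.9% higher in the scrambled line, higher in 3 of 3 tags and without overlap. On the log2(FPKM + 1) scale these changes were −0.14 and 0.13 (SE 0.11 each), with limma adjusted p = 1 for both with no filter. The change in the miR-139 line was −0.07 without the untreated miR-139 C library, −0.09 without the treated TR and −0.23 without the untreated TR library, and that in the scrambled line was 0.08 without the untreated TR library. The difference between the 2 changes was −0.27 (SE 0.16; interval −0.63 to 0.09) with no filter, in a fit that called 1 gene (0.00496%). With the replicate block and no filter the interval was −0.54 to 0.00 and the limma adjusted p 0.965, and that fit too called 1 gene (0.00496%). The group took 76.2% of the sum of squares of PDE4A and the tag 19.8%. Over the tested genes, which PDE4A is not among, the medians were 11.7% and 58.3%. In PDE3A, PDE4B, PDE4C and PDE9A, also under the filter, the tag took 16.8% (PDE3A) to 41.8% (PDE9A). The group took 10.0% (PDE9A) to 38.5% (PDE4C) there. No background over all genes at so low a level was computed.

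A gene on the other strand overlaps PDE4A: the first 3349 bases of PDE4A lie within CDC37, a gene for a chaperone partner that is far more abundant. CDC37 averaged 187 ± 20.9 FPKM in doxycycline-treated miR-139 cells and 205 ± 43.4 FPKM in doxycycline-treated scrambled cells (SD, n = 3 each). That was a difference of −0.12 (SE 0.17, and 0.10 with the replicate block). The library kit keeps the strand, but whether counting used it is not given in the sources used here, and the part of CDC37 fragments in PDE4A was not tested.

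**Figure D3:**
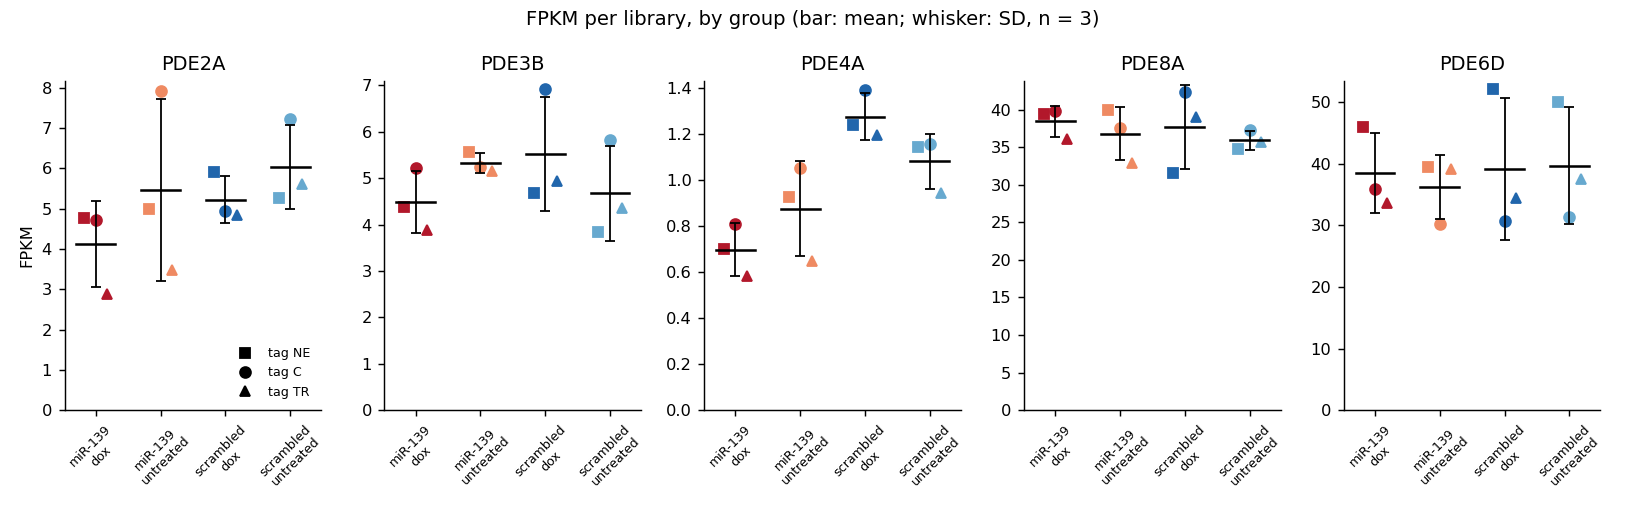
FPKM per library of PDE2A, PDE3B, PDE4A, PDE8A and PDE6D, by group; the horizontal bar is the mean, the whisker the SD (n = 3) and the marker shape the tag. PDE4A in doxycycline-treated miR-139 cells (0.581 to 0.810 FPKM) lies below PDE4A in doxycycline-treated scrambled cells (1.19 to 1.39 FPKM), and the NE libraries are the highest for PDE6D in every group.

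Among the 4 genes with little transcript, 2 had groups that did not overlap. PDE4C, also specific for cyclic AMP, had 0.281, 0.186 and 0.360 FPKM in doxycycline-treated miR-139 cells, against 0.173, 0.0348 and 0.160 FPKM in doxycycline-treated scrambled cells. It was higher in 3 of 3 tags, the reverse of PDE4A, with an adjusted p of 0.800 in limma with the replicate block and no filter. PDE4B, the third enzyme of that family, had 0.151, 0.129 and 0.0587 FPKM in untreated miR-139 cells, against 0.189, 0.171 and 0.154 FPKM in untreated scrambled cells. After doxycycline the PDE4B values of the lines overlapped, at 0.0183 to 0.291 FPKM in the miR-139 line and 0.0584 to 0.167 FPKM in the scrambled line. PDE3A reached 0.116 FPKM at most, in the doxycycline-treated miR-139 C library, and PDE9A 0.240 FPKM, in the doxycycline-treated miR-139 TR library, and both overlapped in all 4 pairs of groups. PDE3A holds the longer seed match, but at this level no difference could be read.

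Counted over all 9 genes, the values of the 2 groups did not overlap for 0 genes with doxycycline in the miR-139 line, against 4.47% of the 20148 genes with a value above 0. In the scrambled line 1 of 9 did not overlap with doxycycline (PDE4A), against 3.46%. Between the lines 3 of 9 did not overlap after doxycycline (PDE2A, PDE4A and PDE4C), against 4.4%, and 1 of 9 untreated (PDE4B), against 3.71%. The 3 genes after doxycycline went in both directions, PDE2A and PDE4A lower and PDE4C higher in the miR-139 line. The same scrambled libraries stand behind all 3, so they are not 3 independent results.

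PDE8A, the high-affinity cyclic AMP enzyme with 1 seed match, was level across the groups. It had 39.9, 39.4 and 36.1 FPKM in the C, NE and TR libraries of doxycycline-treated miR-139 cells, against 37.5, 39.9 and 32.9 FPKM in untreated miR-139 cells. In scrambled cells it had 42.4, 31.6 and 39.1 FPKM with doxycycline, against 37.3, 34.8 and 35.6 FPKM untreated. Doxycycline differed from untreated by 0.07 (SE 0.13; interval −0.23 to 0.36) in the miR-139 line, and the lines differed after doxycycline by 0.04 (SE 0.13; interval −0.25 to 0.33). HNRNPF, which also holds 1 match, differed by −1.05 (SE 0.18) with doxycycline in the miR-139 line. With the replicate block the SE was 0.10 for both PDE8A differences and 0.08 for that of HNRNPF. Over the libraries of all groups and tags, PDE8A had the smallest spread of the 9 genes relative to its mean, with a highest value 1.34-fold its lowest. Whether the microRNA acts on PDE8A was not tested.

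PDE6D, the prenyl-binding chaperone, followed the tags rather than the groups. It had 36.0, 45.9 and 33.6 FPKM in C, NE and TR of doxycycline-treated miR-139 cells, against 30.3, 39.5 and 39.1 FPKM in untreated miR-139 cells. In scrambled cells it had 30.7, 52.2 and 34.4 FPKM with doxycycline, against 31.4, 50.0 and 37.6 FPKM untreated. The NE library was the highest in 4 of 4 groups, and every NE value was above every C and TR value. With the group in the fit, NE exceeded the mean of C and TR by 0.45 (SE 0.08; limma adjusted p = 6.24e-04), a comparison in which 5082 of the 9778 tested genes (52.0%) were called, so 1 call among the 4 phosphodiesterase genes is near the background. The tag took 78.7% of its sum of squares and the group 2.71%. Doxycycline differed from untreated by 0.08 (SE 0.22) in the miR-139 line and by −0.03 (SE 0.22) in the scrambled line. With the replicate block the SE of both was 0.11. COPS7B, on the other strand, overlaps PDE6D over 4602 bases and was also higher in NE, by 0.32 (SE 0.07), and its part in the PDE6D values was not tested.

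PDE2A also varied with the tag, between C and TR. It averaged 6.19 ± 1.61 FPKM in the C libraries and 4.20 ± 1.25 FPKM in the TR libraries (SD, n = 4 each), with C above TR in 4 of 4 groups. The within-group differences were 0.56 and 1.00 in treated and untreated miR-139 cells, and 0.03 and 0.31 in treated and untreated scrambled cells. With the group in the fit the difference was 0.47 (SE 0.15; limma adjusted p = 0.0437), and 1628 genes (16.6%) were called in that comparison. The call rested on single libraries: without the untreated miR-139 C library the difference was 0.32 (limma adjusted p = 0.183), and it was also lost without the untreated miR-139 TR, the treated miR-139 C, the treated miR-139 TR or the untreated scrambled C library, at 0.36, 0.49, 0.41 and 0.46. For PDE2A the spread between tags was thus as large as its differences between groups, with 38.5% of the sum of squares on the tag and 29.2% on the group. PDE3B was above TR in C in 4 of 4 groups as well, by 0.28 (SE 0.11; limma adjusted p = 0.0995), which did not pass.

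**Figure D4:**
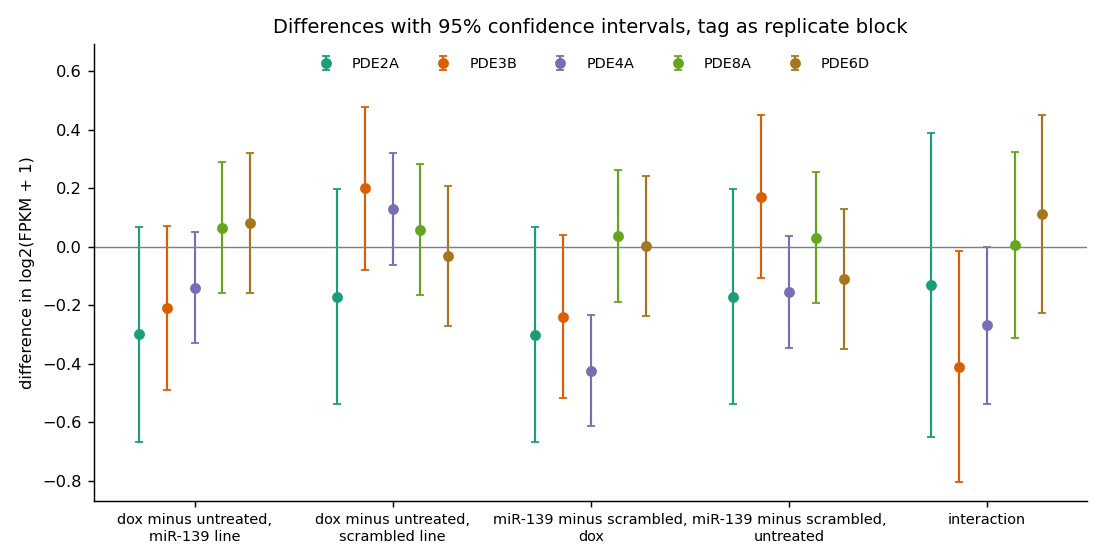
Differences in log2(FPKM + 1) with 95% confidence intervals for 5 genes in the 5 comparisons between groups, from limma with the tag as a replicate block (PDE4A from the fit with no filter). The PDE4A interval for the lines after doxycycline, −0.61 to −0.23, and the PDE3B interval for the interaction, −0.80 to −0.02, leave out 0 before adjustment for the number of genes.

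The genes around PDE2A on chromosome 11 gave no call between groups either. Of 10 neighbours, 8 were tested, among them ARAP1 (51.5 FPKM), STARD10 (48.2 FPKM) and INPPL1 (89.3 FPKM), all more abundant than PDE2A, and 0 of 8 were called in the 5 comparisons with or without the block. Between tags, 3 of 8 were called in NE against C and TR, beside 52.0% of all tested genes, and 2 of 8 in C against TR, beside 16.6%. CLPB (0.70, SE 0.08) and RELT (0.56, SE 0.09) were higher and INPPL1 (−0.38, SE 0.09) lower in NE than in C and TR. ARAP1 (−0.23, SE 0.07) and P2RY2 (−0.57, SE 0.10) were lower in C than in TR, the direction opposite to that of PDE2A.

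By Pearson correlation of log2(FPKM + 1) over the 12 libraries, genes among the 5 most like PDE2A were NFIX (r = 0.886, Spearman's rho = 0.895), TRIM25 (0.873, 0.748), ZNF264 (0.861, 0.853) and TGFBRAP1 (0.850, 0.566). With the mean of each tag taken off they were ANKRD11 (r = 0.924, rho = 0.923), ALG1 (0.892, 0.881), EPHB2 (0.876, 0.860), SYVN1 (0.869, 0.902) and AC012307.3 (0.863, 0.860). No gene was in both sets of 5. The points share libraries and were picked as the highest of all tested genes, so the values are a description. Of the other 8 phosphodiesterase genes, PDE4A had the highest r with PDE2A, 0.66 (rho 0.63), and 0.55 with the tag means taken off. PDE3B had 0.31, PDE8A 0.07, PDE4B 0.01, PDE6D −0.11, PDE3A −0.34, PDE9A −0.35 and PDE4C −0.65.

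Other genes of cyclic nucleotide signalling were read beside these enzymes, and none of those tested was called between groups. Of the listed genes, 11 of 18 cyclases, 3 of 5 G protein genes and 6 of 13 effectors were covered here. Among the makers of cyclic AMP, ADCY3 averaged 68.4, ADCY6 9.73 and ADCY7 8.75 FPKM, whereas the guanylyl cyclase genes in the table averaged below 0.4 FPKM. GNAS, for the stimulatory G protein, averaged 986 FPKM. Of the 6 effectors covered, PRKAR1A (88.8 FPKM) and PRKACA (72.3 FPKM), subunits of protein kinase A, were the most abundant. Of 4 tested cyclases, 3 tested G protein genes, 4 tested effectors, 10 tested anchors and partners and 10 tested genes of the CREB branch, 0 were called in the 5 comparisons, with or without the block.

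Between tags, many genes of these lists were called. In NE against C and TR, 3 of 4 cyclases were called (ADCY3 higher by 0.33 and ADCY7 by 0.43, ADCY6 lower, −0.47), 0 of 3 G protein genes, 2 of 4 effectors (PRKACA 0.48, RAPGEF3 −0.70), 8 of 10 anchors and partners, 4 in each direction, and 5 of 10 CREB genes, 1 higher (CREM 0.60) and 4 lower (PER1 the most, −0.97), beside the background of 52.0%. ARL2 (0.41, SE 0.10) and ARL3 (0.27, SE 0.08), the GTPases that release PDE6D cargo, were higher in NE together with PDE6D. In C against TR, 0 of 4 cyclases, 1 of 3 G protein genes, 2 of 4 effectors, 2 of 10 anchors and partners and 5 of 10 CREB genes were called. Among them ARL3 was lower (−0.32, SE 0.09) and GNAL, an olfactory-type stimulatory G protein gene, was higher (1.19, SE 0.12), beside the background of 16.6%.

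Of 15 further phosphodiesterase genes, 6 were in the table and none reached the filter. PDE6H was listed at 0 in all 12 libraries, and PDE6G and PDE11A had the highest means, 0.249 and 0.210 FPKM. PDE1A, PDE1B and PDE6C averaged below 0.04 FPKM. Summed over the 6, doxycycline-treated miR-139 cells had 0.200 to 0.303 FPKM and untreated miR-139 cells 0.599 to 1.02 FPKM. The scrambled line had 0.512 to 0.791 FPKM with doxycycline and 0.444 to 0.727 FPKM untreated. These sums rest on values close to 0, have no background over all genes beside them and were not tested. The other 9 of the 15 were not analysed here.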

How the data were processed

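The authors deposited 1 table of FPKM values per gene for 12 libraries, of which 37471 genes were used here. Chromosomes 3 to 9 are not covered here. The submitters' processing notes name STAR 2.5, Cufflinks, HTSeq, SAMtools 0.1.19 and 1.3.1, TopHat2 2.0.10 and Bowtie 1.0.0, with the builds GRCh37 and hg19; which tool made the values, and whether strand was used, is not given in the sources used here. Of 66 library pairs, 0 had the same values throughout.

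Genes with a mean of at least 1 FPKM over 12 libraries (9778) were tested on log2(FPKM + 1) with limma 3.58.1 in R 4.3.3, with a variance trend and two-sided Benjamini-Hochberg adjusted p-values. One fit on the 4 group means gave the 5 group comparisons, and a fit on tag with group gave the 2 tag comparisons. The fit was tested on simulated data that held no shift between tags. That test does not show how the fit without the block behaves under such shifts. Labels do not tie tags to separate cultures, so p-values reflect only how far these libraries vary, and that may be technical. Libraries that share a tag deviated together from their group means in 18 of 18 pairs (r 0.33 to 0.86), so the tags pair the libraries, and fits with the tag as a replicate block are given. Replicate letters of the sample titles could not be matched to columns.

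All 9 genes are named. Some items that the rules for named genes would give are not reported here. Of the pathway lists, the text names genes that passed a test or were among the 3 most abundant of their list. The members, lists and tests were chosen with earlier results of these data known. 3′ UTR sites and gene positions came from GENCODE 29 (GRCh38), another build than that of the table.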

Additional observations from a re-analysis of the deposited data

Results flagged for a closer look

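The change of PDE3B with doxycycline differed in direction between the lines: lower in 3 of 3 tags of the miR-139 line and higher in 3 of 3 of the scrambled line, with a difference of −0.41 on the log2(FPKM + 1) scale that did not pass adjustment. PDE4A was opposite in the same way, with a difference of −0.27 in the fit with no filter, which did not pass adjustment either.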

How the results depend on the processing

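Of the 7 counts of called phosphodiesterase genes, 6 kept their value under the alternatives run for them. These were a pseudocount of 0.1, a minimum of 5 FPKM or none, upper quartile scaling, quantile normalization, no variance trend and leaving out a library. The replicate block and leaving out a tag were run only for the 5 group comparisons, not for the 2 tag comparisons. The exception was C against TR, where the count of 1 (PDE2A) became 0 with no filter (adjusted p = 0.157) and with no variance trend (adjusted p = 0.0508), and ranged from 0 to 1 when single libraries were left out. With the replicate block the count was 0 in all 5 group comparisons, and it changed no call. PDE4A after doxycycline, between the lines, ranged from −0.47 to −0.37 without single libraries. It was −0.79 with a pseudocount of 0.1, since the pseudocount shrinks low values, and its adjusted p was 0.392 with a minimum of 0.5 FPKM and the replicate block. These PDE4A fits were chosen after seeing the data.

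Differences close to 0 changed sign. Without single libraries, doxycycline in the miR-139 line ranged from −0.0496 to 0.170 for PDE6D and from −0.0102 to 0.125 for PDE8A, and in the scrambled line from −0.254 to 0.144 for PDE6D and from −0.0294 to 0.177 for PDE8A. The interaction ranged from −0.365 to 0.133 for PDE2A, from −0.0633 to 0.335 for PDE6D and from −0.112 to 0.0948 for PDE8A. The lines after doxycycline ranged from −0.149 to 0.225 for PDE6D and from −0.0807 to 0.126 for PDE8A. The untreated lines ranged from −0.433 to 0.0654 for PDE2A, from −0.262 to 0.0656 for PDE6D and from −0.0281 to 0.107 for PDE8A. NE against C and TR ranged from −0.0278 to 0.148 for PDE2A and from −0.122 to 0.0556 for PDE8A, and PDE2A was −0.0333 with upper quartile scaling. Without tag C, PDE8A with doxycycline in the scrambled line was −0.00252 and PDE6D between treated lines −0.108. Without tag NE, PDE8A was −0.0490 for the interaction, −0.0990 between treated lines and −0.0501 between untreated lines, and PDE6D 0.00102 between untreated lines. Without tag TR, PDE6D with doxycycline in the scrambled line was 0.0147 and PDE2A between untreated lines 0.0272. These values without a tag were the same with the replicate block. The cause was not tested. FPKM without counts allows no counting interval, which limits PDE3A, PDE4B, PDE4C and PDE9A most.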
